A study of Mus musculus with 4 samples.

Results

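TCPA18654 and TPC18645 are tumor cell lines from mouse pancreas that carry different genotype labels and had nearly the same transcriptome on the arrays. They are 2 of the 4 lines of the series and form 1 of its 6 possible pairs of lines, and the pair was chosen by these array values, so its closeness and its differing genes are given as a description. For each of 19938 genes the signal of TPC18645 was taken from that of TCPA18654, with 1 array per line, so that no difference has a replicate check, an error or a test. All values are log2 signals from RMA, in which the authors brought the arrays to one distribution and joined the probes of each transcript cluster; a log2 difference of 1 is a fold of 2.

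TPC18645 and TPC20223 belong to the TPC group, labelled Ela-TGFa with Ptg1a+/CRE and Trp53fl/fl. TCPA18654 and K459 belong to the TPAC group, which carries p65fl/fl in addition. All 4 lines thus share the transforming growth factor-α transgene, which the elastase promoter drives in acinar cells, as well as the Cre allele and the floxed p53 alleles, and they were grown from digested tumors with no treatment. The labels spell the Cre allele Ptg1a. The age, sex and number of the mice are not analysed here, and neither the labels nor the methods state how TCPA18654 relates to TPC18645.

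The p65 protein, encoded by Rela, is the main activating subunit of NF-κB. Inhibitors of the IκB family hold NF-κB in the cytoplasm until upstream kinases release it, and in the nucleus it switches on genes for chemokines, adhesion molecules, survival factors and its own inhibitors. Type I interferons act through another route, in which STAT proteins join Irf9 on a short promoter element and switch on genes of antiviral defense.

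Of 7 genes listed for the genotypes 5 were measured, and these did not set the pair apart, with differences of -0.31 to -0.02. The p53 gene Trp53 was not among the 5, so no level of it is given. Rela had a signal of 11.10 in TCPA18654, 11.12 in TPC18645, 10.82 in K459 and 10.70 in TPC20223. The Rela transcript cluster sums probes along the transcript, and which exons are floxed was not used here, so this level does not check the genotype label. Tgfa, whose transgene all the lines carry, stood at 8.90 in TCPA18654, 8.94 in TPC18645, 9.07 in K459 and 7.88 in TPC20223. Whether the Tgfa cluster reads the transgene was not checked, so these levels do not compare transgene expression. Egfr, the receptor gene of transforming growth factor-α, stood at 11.49, 11.68, 10.89 and 10.21 in the same order of lines. Ptf1a, an acinar transcription factor gene, was dim in all the lines (5.95, 6.06, 6.13 and 5.88), and Cela1, the elastase gene, stood at 7.44, 7.75, 7.37 and 7.77. Here dim means at or below a mean signal of 6.96 over the 4 lines, which is the 40th percentile; the values carry no detection call.

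Most cell type markers differed by less than 0.5 between TCPA18654 and TPC18645. None of the 9 ductal and epithelial markers was dim, and their differences lay between -0.07 and 0.55. Krt19, a keratin of duct cells, stood at 11.79 in TCPA18654 and 11.74 in TPC18645, and Krt8 at 13.44 and 13.33. Of 6 leukocyte markers 5 were dim, as were all 4 endothelial markers, all 3 measured islet markers, 3 of 4 measured acinar markers and 1 of 2 measured Schwann cell markers. Ptprc, the pan-leukocyte gene, had 5.77 and 6.02 and Pecam1 of endothelium 6.10 and 6.08. The 6 fibroblast markers ranged from 6.87 to 10.99 in TCPA18654 and from 6.99 to 11.03 in TPC18645, with differences of -0.48 (Pdgfrb) to 0.19. The 4 measured acinar markers were all lower in TCPA18654, with differences of -0.86 (Cpa1, dim) to -0.11. Of the 5 acinar markers chosen, Amy2a5 had no cluster with its symbol alone. The clusters of the pancreatic amylase (Amy2) family, which carry several symbols, had a median of 4.70 in TCPA18654 and 8.21 in TPC18645. Both lines also had low signals of Xist, the transcript of the inactive X chromosome (5.68 and 5.76, against 11.23 in TPC20223 and 5.42 in K459). Signals of the Y-linked gene Eif2s3y were low as well (4.21 and 4.17, against 4.21 in TPC20223 and 7.36 in K459). This combination of low Xist and low Eif2s3y was found in these 2 lines and in neither of the others.

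Over all genes the differences between TCPA18654 and TPC18645 had an SD of 0.212 and a median of -0.02. In the other 5 pairs of lines the SD was between 0.466 (K459 and TCPA18654) and 0.825 (TPC18645 and TPC20223). To see how much of this spread is found where little expression is expected, 1027 olfactory receptor genes were taken, which sensory neurons of the nose use. Their differences had an SD of 0.224 in the closest pair and between 0.173 and 0.21 in the others. In the closest pair alone, the spread over all genes was thus no larger than over olfactory receptor genes. Split into 3 equal parts by mean signal, the brightest genes had an SD of 0.172 and those in the middle 0.238, against 0.461 to 0.848 and 0.58 to 1.024 in the other pairs. Olfactory receptor genes differed by at most 0.95 in size in the closest pair, and 18 of 1027 differed by 0.58 or more and 0 by 1 or more.

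**Figure D1:**
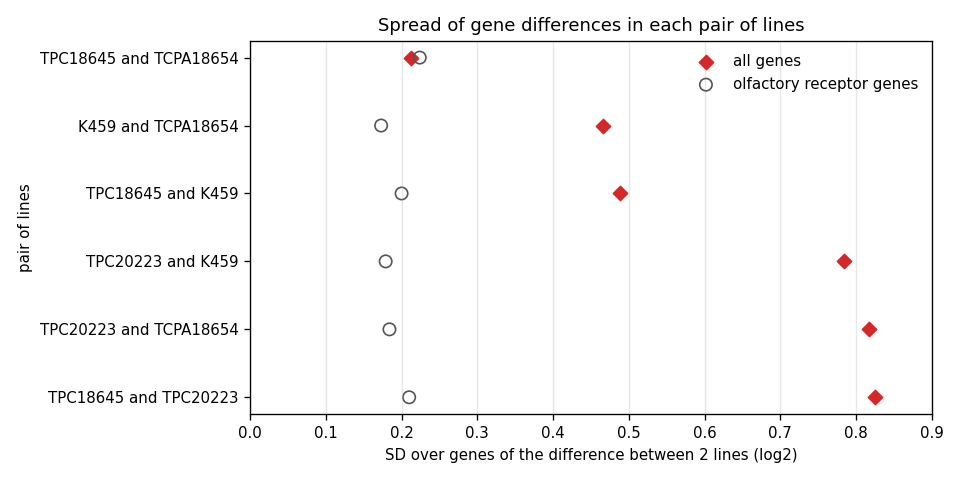
SD over genes of the log2 difference between the arrays of 2 lines, for the 6 pairs; diamonds show all 19938 genes and open circles 1027 olfactory receptor genes. The diamonds and circles fall together (0.212 and 0.224) for TPC18645 with TCPA18654 and lie apart in every other pair.

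Of the 19938 genes, 54 differed by 1 or more in size between TCPA18654 and TPC18645, which is 0.271% of them; 24 were higher and 30 lower in TCPA18654. Of the 54, 3 differed by 2 or more, namely Ogn, Tm4sf4 and Tspan6. In the other pairs between 772 and 2243 genes differed by 1 or more and between 186 and 790 by 2 or more. With a limit of 0.58, 335 genes differed (1.68%), 143 of them higher (0.717%) and 192 lower (0.963%). Of the 54 genes 9 had signals at or below the dim limit of 6.96 in both TCPA18654 and TPC18645, and 22 in at least 1 of them, so the sizes of these differences are not exact. Peg3, Stmn2 and Irf7 were just inside the limit of 1, at 1 in size after rounding, and Pamr1 and Mucl3 with 0.99 and Pcdh19 with -0.99 just outside.

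**Figure D2:**
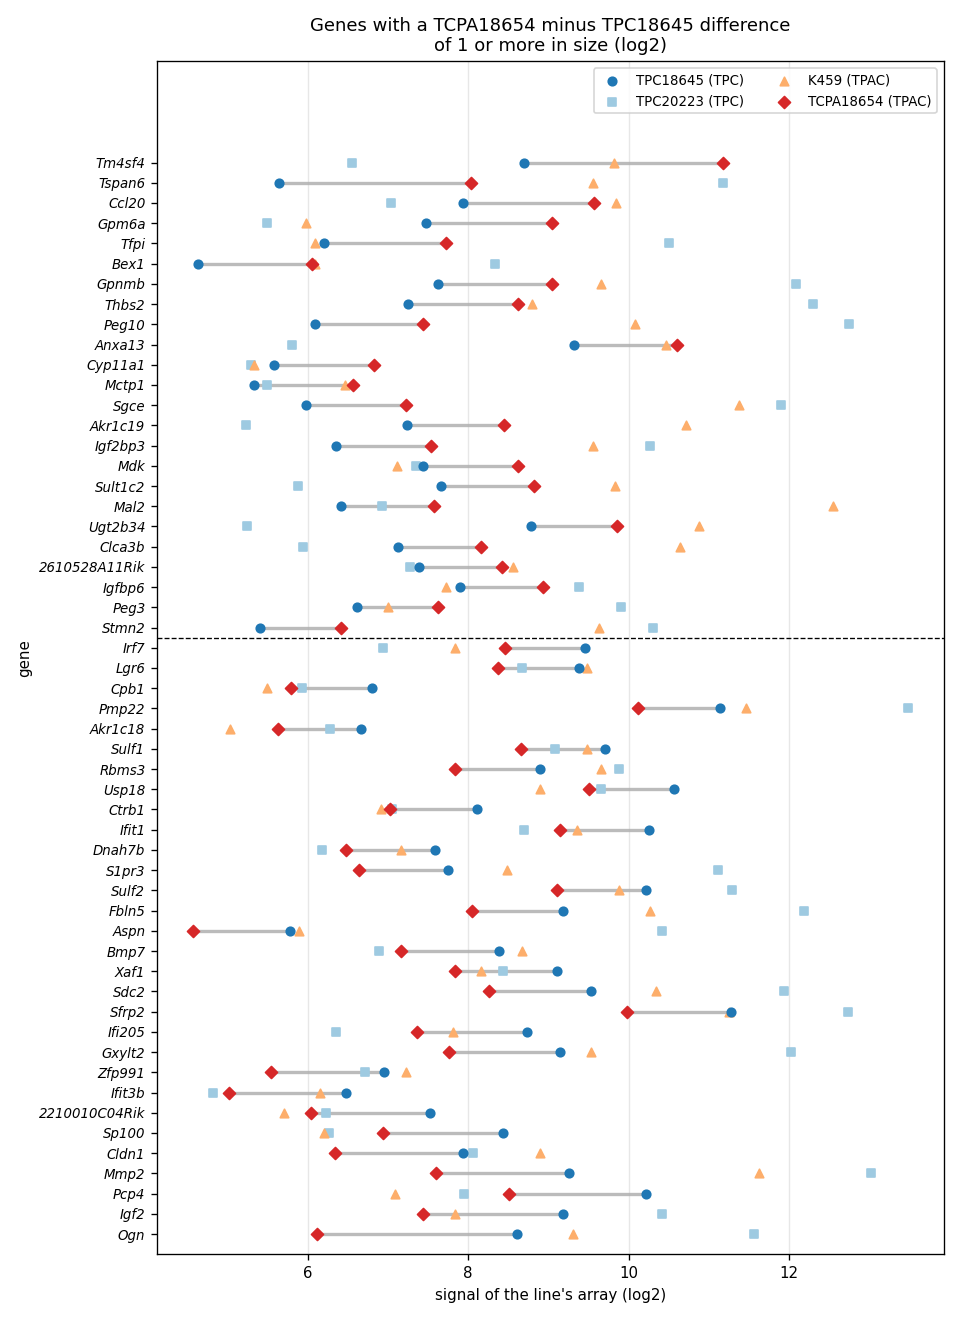
Log2 signals in the 4 lines (1 array each) of the 54 genes that differed by 1 or more in size, sorted by the difference TCPA18654 minus TPC18645 from 2.47 at the top to -2.49 at the bottom; the gray bar joins these 2 lines and the dashed line parts the 24 higher from the 30 lower genes. In 35 of the 54 genes K459 and TPC20223 both lie on the same side of the bar's middle, a count not made over all genes.

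The largest differences among the 24 genes with higher signals in TCPA18654 were those of Tm4sf4, Tspan6, Ccl20, Gpm6a and Tfpi. Tm4sf4, a membrane protein of the transmembrane 4 family, stood at 11.17 in TCPA18654, 8.70 in TPC18645, 9.82 in K459 and 6.55 in TPC20223, so TCPA18654 was the highest line and the difference of 2.47 corresponds to a fold of 5.54. Tspan6, a tetraspanin encoded on the X chromosome, stood at 8.03, 5.64, 9.55 and 11.18 in this order, a difference of 2.39. For Tspan6 TPC18645 was the lowest of the 4 lines, well under the range of the others. Ccl20, a chemokine that draws cells bearing Ccr6 and a known NF-κB target, had 9.57, 7.93, 9.84 and 7.04, a difference of 1.64. For Ccl20, as for Tm4sf4, both TPAC lines were above both TPC lines. Gpm6a, a neuronal membrane glycoprotein, stood at 9.04 in TCPA18654 and between 5.49 and 7.48 in the other lines. Tfpi, the tissue factor pathway inhibitor of coagulation, had 7.72 in TCPA18654, 6.21 in TPC18645, 6.09 in K459 and 10.50 in TPC20223.

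A run of 9 of the 24 higher genes shared one order of lines, with TPC18645 lowest and TPC20223 highest. They were Tspan6, Bex1, Gpnmb, Thbs2, Peg10, Sgce, Igf2bp3, Peg3 and Stmn2. Gpnmb, a glycoprotein of melanosomes and macrophages, had 9.04 in TCPA18654, 7.62 in TPC18645, 9.65 in K459 and 12.08 in TPC20223. Thbs2, a matricellular thrombospondin, had 8.62, 7.25, 8.79 and 12.30, and Igf2bp3, an oncofetal RNA-binding protein, 7.54, 6.35, 9.55 and 10.27. In these genes K459 and TPC20223 were nearer to TCPA18654 than to TPC18645, except K459 for Peg3. For some, such as Sgce, Peg10 and Stmn2, both lines of the closest pair were nonetheless far below the other lines. Over all 54 genes, both TPAC lines were above both TPC lines in 10 of the 24 higher genes (13.7% of all genes had this order) and below both in 9 of the 30 lower genes (13.3%). The rule that chose the genes already fixes the order of one line of each genotype, so these shares are not read against those of all genes.

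Another set of 6 higher genes, Ccl20, Akr1c19, Sult1c2, Ugt2b34, Clca3b and 2610528A11Rik, had K459 highest and TPC20223 lowest. Akr1c19, an aldo-keto reductase, stood at 8.45 in TCPA18654, 7.24 in TPC18645, 10.71 in K459 and 5.23 in TPC20223. Sult1c2, a cytosolic sulfotransferase, had 8.82, 7.66, 9.83 and 5.88, and the glucuronosyltransferase Ugt2b34 had 9.86, 8.78, 10.88 and 5.25. These 3 enzymes modify small molecules such as steroids and xenobiotics, yet the list of glutathione, NRF2 and xenobiotic genes as a whole was nearly level (29 of 47 higher, median 0.06, beside -0.02 over all genes). In that list Akr1c14 was lower by 0.61, and Gstm6 (0.51, dim), Slc7a11 (0.50) and Gsta3 (0.46) were higher. Only 6 of the 24 genes were highest in TCPA18654 itself, namely Tm4sf4, Gpm6a, Anxa13, Cyp11a1, Mctp1 and Mdk. Anxa13, an annexin of epithelia, had 10.60 in TCPA18654, 9.32 in TPC18645, 10.47 in K459 and 5.81 in TPC20223. Mdk, the heparin-binding growth factor midkine, which promotes neurite outgrowth, had 8.62 in TCPA18654 against 7.44, 7.11 and 7.35. Cyp11a1, the enzyme that opens steroid synthesis, was dim, with 6.83 against 5.58, 5.33 and 5.29. Bex1, with 6.05 in TCPA18654 and 4.63 in TPC18645, and the calcium-binding membrane protein Mctp1, with 6.57 and 5.33, were dim as well. Mal2, a protein of apical membrane traffic, had 7.57 and 6.42 beside 12.55 in K459.

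The largest differences among the 30 genes with lower signals in TCPA18654 were those of Ogn, Igf2, Pcp4, Mmp2 and Cldn1. Ogn, which encodes the small leucine-rich proteoglycan osteoglycin, had 6.12 in TCPA18654, 8.61 in TPC18645, 9.31 in K459 and 11.56 in TPC20223, and its difference of -2.49 was the largest in size of all genes (fold 5.62). Igf2, the fetal growth factor, stood at 7.44, 9.18, 7.84 and 10.41, a difference of -1.74. Mmp2, the secreted gelatinase, had 7.60, 9.26, 11.62 and 13.02, a difference of -1.66. For Ogn, Igf2 and Mmp2 TCPA18654 was the lowest line and TPC20223 the highest, an order that 12 of the 30 lower genes shared. The others of the 12 were Gxylt2, Sfrp2, Sdc2, Aspn, Fbln5, Sulf2, S1pr3, Rbms3 and Pmp22. Sfrp2, a secreted Wnt antagonist, had 9.98 in TCPA18654, 11.27 in TPC18645, 11.25 in K459 and 12.73 in TPC20223. Sdc2, a heparan sulfate proteoglycan of the cell surface, had 8.26, 9.53, 10.34 and 11.94, and Fbln5, which takes part in elastic fiber assembly, 8.05, 9.18, 10.27 and 12.18. Sulf2 and Sulf1, the secreted enzymes that trim sulfate from heparan sulfate and so alter binding of growth factors, were lower by 1.11 and 1.05; Sulf1 had 8.66 in TCPA18654, 9.71 in TPC18645, 9.48 in K459 and 9.08 in TPC20223. Gxylt2, a xylosyltransferase that acts on Notch, had 7.76 in TCPA18654 and 9.14 in TPC18645. In all, 17 of the 30 lower genes were lowest in TCPA18654. Pcp4, a calmodulin-binding peptide of neurons, was not among them, with 8.51 in TCPA18654, 10.21 in TPC18645, 7.09 in K459 and 7.95 in TPC20223. The 2 transcript clusters of the dynein gene Dnah7b disagreed, with differences of -1.11 and 0.17.

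Most matrix genes were nearly level in the pair. For the counts that follow, 44.1% of all genes were higher and 53.6% lower. The median of all genes above the dim limit was -0.05. Of 83 measured collagens and matrix proteins 48 were higher and 34 lower in TCPA18654, with a median difference of 0.06 (0.01 without dim genes) beside -0.02 over all genes. Besides Sfrp2, Fbln5 and Thbs2, the fourth largest difference was that of Postn, the matricellular protein periostin, with 5.15 in TCPA18654, 5.99 in TPC18645, 8.55 in K459 and 11.71 in TPC20223. Among 72 matrix proteases and inhibitors 24 were higher and 44 lower, with a median of -0.05. After Mmp2, the largest differences were those of the stromelysin gene Mmp3 (10.20 and 10.96), the aggrecanase gene Adamts5 (7.06 and 7.77) and the neutrophil collagenase gene Mmp8, which was dim (5.10 and 5.59). Mesenchymal and EMT genes had 4 higher and 13 lower of 19, with a median of -0.12; next to Mmp2 these were led by Acta2, smooth muscle actin (12.09 and 12.64), and the transcription factor genes Twist1 (6.67 and 7.01) and Zeb1 (10.03 and 10.35). Epithelial genes lay slightly the other way, with 24 of 35 higher and a median of 0.11. The largest were Prom1 (7.03 in TCPA18654 and 6.40 in TPC18645), the adhesion molecule gene Epcam (7.37 and 6.82), the transcription factor gene Ovol1 (6.29 and 5.78, dim) and the mucin gene Muc1 (10.06 and 9.56). Cldn1, a tight junction protein, was lower by 1.59, with 6.34 in TCPA18654 and 7.93, 8.89 and 8.06 in TPC18645, K459 and TPC20223.

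Single genes of the Wnt list, the TGF-β and BMP list and the growth factor list differed in both directions. The medians of these lists lay within 0.1 of 0. In the Wnt list 16 of 45 genes were higher and 27 lower (60.0%, beside 53.6% of all genes), with a median of -0.04. Without dim genes the median was -0.07, beside -0.05 over all genes above the dim limit. Lgr5, a receptor for R-spondins and stem cell marker, was higher (8.13 against 7.23), whereas Sfrp2, the receptor gene Fzd2 (10.00 against 10.75) and the ligand gene Wnt5a (8.51 against 9.22) were lower. Lgr6, a relative of Lgr5 outside the list, was lower by 1.01 (8.37 against 9.38). The list of TGF-β, activin and BMP genes was more one-sided. Of its 40 genes 9 were higher and 31 lower (77.5%, beside 53.6% of all genes), with a median of -0.08. None of the 40 was dim, and all genes above the dim limit had a median of -0.05. Of those genes 29.6% to 42.5% were higher on 19 chromosomes, beside 22.5% of this list. Part of the lean was thus shared by genes above the dim limit at large. The ligand gene Bmp7 had 7.16 in TCPA18654, 8.38 in TPC18645, 8.67 in K459 and 6.89 in TPC20223, and the binding protein gene Ltbp2 had 8.05 against 7.16. The activin subunit gene Inhba and the ligand gene Tgfb3 differed by -0.42 and -0.34. Of 36 genes of IGF, FGF, PDGF and VEGF signaling 18 were higher and 17 lower. Here Igf2 and Igfbp2 were lower, the latter with 7.55 against 8.31. Higher were Igfbp6 (8.93 against 7.90), Igfbp5 (7.29 against 6.34) and Fgf7 (10.51 against 9.75), the last level with Igfbp2 in size. The Igfbp genes encode carriers of IGFs. Receptors and ligands of the EGFR family showed no gene at 0.58 or more among 18, the largest differences being those of Nrg4 (-0.42), Nrg3 (0.35), Errfi1 (0.28) and Ereg (0.23).

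Among the 55 lists of 10 or more genes, the interferon-stimulated genes had the median farthest from that of all genes. Of 44 measured genes 41 had lower signals in TCPA18654 (93.2%, beside 53.6% of all genes), 2 had higher signals (44.1% of all genes) and 1 was equal. The median difference was -0.53 beside -0.02 over all genes, and 18 of the 44 were lower by 0.58 or more (40.9%, beside 0.963% of all genes), whereas 0 were higher by as much. This share was the highest among the 55 lists of 10 or more genes. Since these genes were among the values that chose the pair, and earlier results had named them, this is a description of the pair.

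Transcription factors, effectors and sensors of the interferon route were among the lower genes. Among the transcription factors, Irf7, which amplifies interferon production, had 8.46 in TCPA18654, 9.46 in TPC18645, 7.84 in K459 and 6.94 in TPC20223. Irf9, the DNA-binding partner of STAT proteins, had 9.20, 9.90, 9.36 and 8.53 and Stat2 had 8.42, 9.03, 8.80 and 7.89. For each of the 3, TPC18645 was the highest line. Among effectors, Xaf1, a pro-apoptotic protein, had 7.84 in TCPA18654, 9.11 in TPC18645, 8.16 in K459 and 8.43 in TPC20223, the largest difference of the list with -1.27. Ifit1, which binds viral RNA, had 9.15, 10.25, 9.35 and 8.70, and Usp18, which removes the ubiquitin-like modifier ISG15 and damps interferon signaling, had 9.51, 10.57, 8.89 and 9.66. For these 3 effectors TPC18645 was again the highest line. The cytosolic RNA sensor genes were lower too, with 10.56 against 11.08 for Ddx58, 8.70 against 9.20 for Ifih1 and 7.47 against 8.14 for Dhx58 in TCPA18654 and TPC18645.

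TPC18645 had the highest signal of the 4 lines in 35 of the 44 genes, beside 5031 of all 19938 genes. In 21 of the 35 TCPA18654 came second, a count not made over all genes. The median level of the list was 9.16 in TPC18645, 8.55 in TCPA18654, 8.25 in K459 and 7.79 in TPC20223. TCPA18654 was above TPC20223 in 31 of the 44 genes and above K459 in 28, counts that were likewise not made over all genes. Over the list, TCPA18654 minus TPC20223 had a median of 0.56, beside 0.06 over all genes. For TCPA18654 minus K459 the median was 0.19, beside 0.02. Members that did not differ were Rsad2 (7.42 in TCPA18654 and 7.35 in TPC18645), Gbp4 (5.52 and 5.50), Iigp1 (4.69 in both), Cmpk2 (6.76 and 6.82) and Oasl1 (9.88 and 9.95), of which Gbp4, Iigp1 and Cmpk2 were dim. Some further genes outside the list that interferons are known to induce, chosen after their values were seen, also had lower signals. These were Sp100, a nuclear body protein (6.94 against 8.44, dim), and the DNA-binding protein gene Ifi205 (7.36 against 8.73). Ifit3b (5.02 against 6.48, dim) and the membrane protein gene Ifitm3 (10.59 against 11.38) were lower too. AW112010, which interferons also induce, was higher (10.05 against 9.29). No full set of such genes was gathered.

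**Figure D3:**
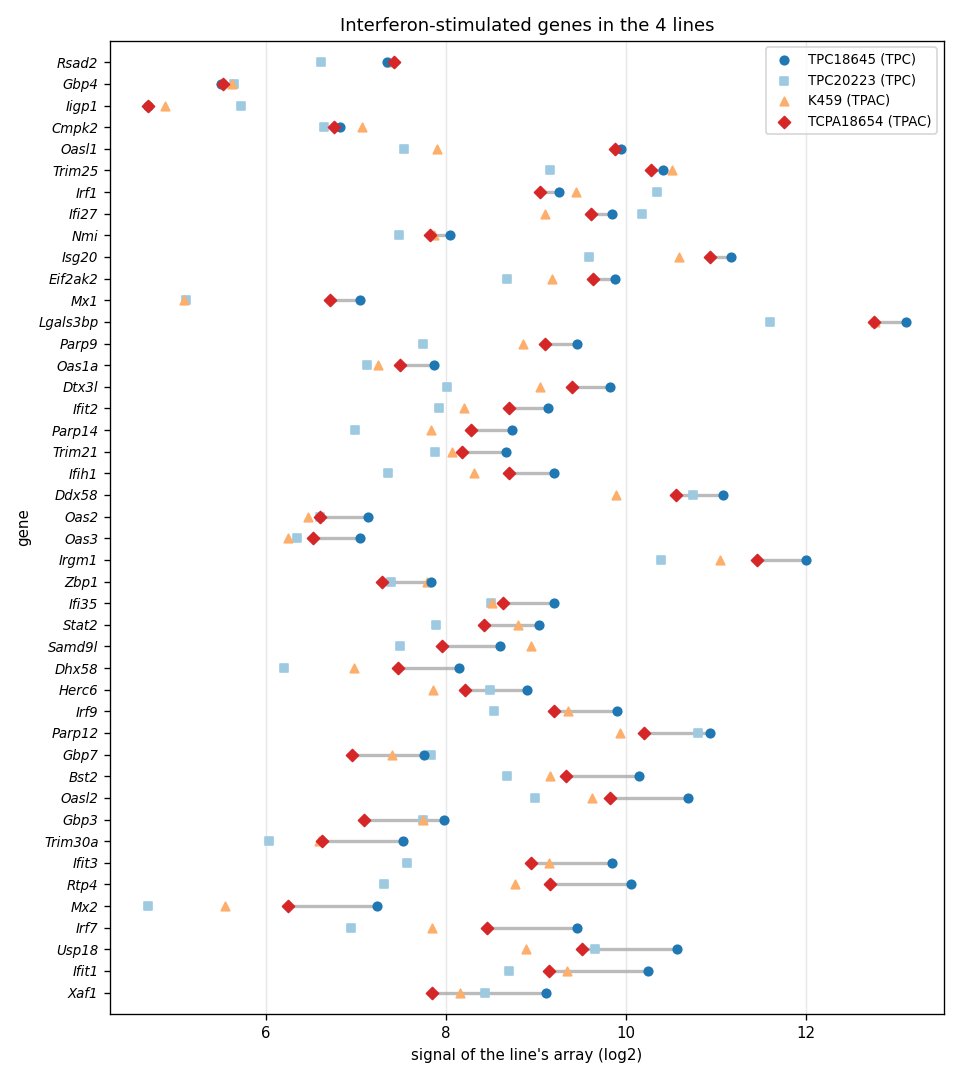
Log2 signals of the 44 measured interferon-stimulated genes in the 4 lines (1 array each), sorted by the difference TCPA18654 minus TPC18645 from 0.07 at the top to -1.27 at the bottom; the gray bar joins these 2 lines. TPC18645 is rightmost in 35 of the 44 genes, beside 5031 of all 19938 genes.

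The genes for interferons and their receptors, a set put together after the values were seen, did not share the difference. The 16 measured ligand genes, of which 13 were dim, differed by -0.22 to 0.47 with a median of 0.06. The 5 receptor genes were all above the dim limit and differed by -0.10 to 0.00. Genes of MHC class I and antigen processing, many of which interferons also induce, had 8 of 19 higher, 10 lower and a median of -0.01 (-0.08 without dim genes). The 4 largest differences of this list were all lower, with -0.47 for H2-Q4, -0.35 for the peptide transporter gene Tap1, -0.32 for the peptidase gene Erap1 and -0.31 for the immunoproteasome gene Psmb10.

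The interferon genes are where promoter sequence bears on the members, because their common regulator binds a known element, the interferon-stimulated response element. Its core was searched as 2 copies of GAAA with a gap of 2 bases, on both strands, in the RefSeq windows of GRCm38.p6 that run from 250 bases before to 50 bases after a gene's start. Of 44 interferon-stimulated genes 32 had a window and 15 of these held at least 1 match (46.9%), beside 3.44% of all 32851 windows and 3.89% of the measured genes with a window. The windows of the 3 list members with a match and the lowest differences (Ifit1, Ifit3 and Trim30a) and of the 1 with the highest difference (Rsad2) follow, 5′ to 3′ on the strand of the gene, with each match in capitals.
Ifit1, chr19:34640639-34640938, plus strand: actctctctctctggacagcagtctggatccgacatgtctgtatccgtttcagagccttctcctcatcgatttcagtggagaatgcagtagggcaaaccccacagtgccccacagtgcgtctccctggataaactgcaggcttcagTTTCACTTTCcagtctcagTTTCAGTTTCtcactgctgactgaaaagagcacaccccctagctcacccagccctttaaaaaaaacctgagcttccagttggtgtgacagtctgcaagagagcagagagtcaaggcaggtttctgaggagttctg
Ifit3, chr19:34583279-34583578, plus strand: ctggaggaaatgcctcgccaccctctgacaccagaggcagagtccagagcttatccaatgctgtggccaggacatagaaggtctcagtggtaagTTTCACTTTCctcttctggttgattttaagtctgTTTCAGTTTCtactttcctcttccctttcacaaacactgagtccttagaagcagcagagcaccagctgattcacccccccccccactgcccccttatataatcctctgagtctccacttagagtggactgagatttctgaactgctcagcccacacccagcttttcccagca
Trim30a, chr7:104465144-104465443, minus strand: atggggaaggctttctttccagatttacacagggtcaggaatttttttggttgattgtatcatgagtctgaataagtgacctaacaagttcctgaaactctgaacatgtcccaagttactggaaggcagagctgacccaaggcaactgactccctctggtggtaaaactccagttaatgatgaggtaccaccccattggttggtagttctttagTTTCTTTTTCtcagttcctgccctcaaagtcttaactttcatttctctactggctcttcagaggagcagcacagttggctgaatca
Rsad2, chr12:26456403-26456702, minus strand: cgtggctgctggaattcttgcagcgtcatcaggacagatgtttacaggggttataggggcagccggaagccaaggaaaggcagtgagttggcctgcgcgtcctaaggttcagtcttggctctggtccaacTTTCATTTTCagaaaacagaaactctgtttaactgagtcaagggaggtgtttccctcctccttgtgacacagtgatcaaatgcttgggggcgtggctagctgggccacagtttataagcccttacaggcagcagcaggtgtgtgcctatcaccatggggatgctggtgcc
Ifit1 and Ifit3 held 2 matches each and Trim30a and Rsad2 1 each, and in these 4 windows each match lay on the strand opposite to the gene. Trim30a, a restriction factor gene with 2 RefSeq windows, is shown by the one with the match. The differences of these genes were -1.10 for Ifit1, -0.90 for Ifit3, -0.90 for Trim30a (dim) and 0.07 for Rsad2. Genes with a match had a median difference of -0.54 (15 genes, -1.10 to 0.07) and genes without one of -0.43 (17 genes, -1.27 to -0.06), so the ranges overlapped. Xaf1, with the lowest difference of the list, and Irf7 had no match in their windows. Among the genes that differed by 1 or more, 6 of 24 lower genes with a window held a match and 3 of 18 higher genes.

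Acinar enzyme genes had lower signals in TCPA18654, mostly at low levels. The pancreatic amylase clusters, which carry several symbols and so are outside the list, differed most. Their median difference was -3.51, with 8.21 in TPC18645 and 4.70 in TCPA18654. Of 20 measured acinar markers 15 were lower and 5 higher, with a median of -0.25, and 16 of the 20 were dim, so that the sizes are not exact. Ctrb1, the chymotrypsinogen B gene, had 7.03 in TCPA18654, 8.11 in TPC18645, 6.92 in K459 and 7.05 in TPC20223. The carboxypeptidase genes Cpb1 and Cpa1 had 5.79 and 6.64 in TCPA18654 against 6.80 and 7.50 in TPC18645, and the salivary-type amylase gene Amy1 5.07 against 6.05. A further gene of the trypsin family, 2210010C04Rik, was dim, with 6.04 in TCPA18654, 7.52 in TPC18645, 5.71 in K459 and 6.23 in TPC20223. In each of these genes TPC18645 stood above the 3 other lines. The acinar transcription factor genes did not share this, with 5.95 against 6.06 for Ptf1a, 6.78 against 6.61 for Bhlha15 and 6.94 against 6.86 for Rbpjl.

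Complement and acute phase genes were lower in 18 of 22 (81.8%, beside 53.6% of all genes), with a median of -0.23. Without dim genes the median was -0.27, beside -0.05 over all genes above the dim limit. By 0.58 or more 3 were lower (13.6%, beside 0.963% of all genes) and 1 was higher (4.55%, beside 0.717%). The complement component genes C2 (7.97 in TCPA18654 and 8.82 in TPC18645) and C4b (8.18 and 8.78) and the acute phase gene Saa3 (8.55 and 9.14) were lower, and Orm1, for the plasma protein orosomucoid, was higher and dim (6.78 and 6.08). C2 had 5.84 in K459 and 5.97 in TPC20223, so both lines of the closest pair were above the others.

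NF-κB genes had medians near that of all genes in the pair, whose genotype labels differ in p65. Of 42 NF-κB targets 18 were higher and 24 lower, with a median of -0.05, and 3 differed by 0.58 or more in size, beside 1.68% of all genes. Ccl20 is given above. Cxcl5, a neutrophil chemokine, had 10.96 in TCPA18654, 10.17 in TPC18645, 10.89 in K459 and 8.75 in TPC20223, and Saa3 had 5.99 in K459 and 9.55 in TPC20223. Cxcl10, which interferons also induce, had 9.27, 9.75, 8.50 and 9.61. The inhibitor genes that NF-κB itself induces were close, with 10.51 against 10.44 for Nfkbia and 10.57 against 10.65 for Tnfaip3. Among 17 NF-κB subunits, inhibitors and kinases 0 differed by 0.58 or more; the largest differences were 0.40 for Nfkbid, -0.29 for Nfkbie and -0.15 for Bcl3 and Nfkb2. Among 25 chemokines Cxcl15 was lower (10.65 against 11.55), and Ccl2 had 11.07 in TCPA18654, 10.84 in TPC18645, 10.83 in K459 and 11.80 in TPC20223. Neurotrophic and axon guidance genes had 21 higher and 30 lower of 51, with a median of -0.07, led by Mdk and by the guidance genes Slit2 (7.67 against 6.81), Sema3a (7.94 against 8.62) and the neurotrophin-3 receptor gene Ntrk3 (6.04 against 6.66, dim).

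Other lists had small medians, and most of their genes differed by less than 0.58. The counts of higher and lower genes stand beside 44.1% and 53.6% of all genes. Genes above the dim limit had a median of -0.05. Cell cycle and mitosis genes were higher in 44 of 55, but by at most 0.31, with a median of 0.08. The largest were the replication gene Mcm3 (0.31), Cenpf of the kinetochore (0.26), the topoisomerase gene Top2a (0.25) and the cyclin gene Ccne1 (0.23, level with Kif20a and Mki67). Heat shock and unfolded protein response genes were higher in 22 of 26, with a median of 0.10. Their largest difference was that of Creld2 of the endoplasmic reticulum (0.35), but the next 3, the heat shock genes Hspb1 (-0.30), Bag3 (-0.25) and Hspa1a (-0.24), were lower. Genes of amino acid and one-carbon metabolism that ATF4 is known to drive were higher in 26 of 34, with a median of 0.11, led by the cationic amino acid carrier gene Slc7a3 (8.18 against 7.25) and by Cth, which makes cysteine (8.92 against 8.20), the only 2 at 0.58 or more; Slc7a11 and Aldh1l2 were higher by 0.50 and 0.36. Zinc finger genes of the Zfp family were lower in 255 of 347, with a median of -0.11; Zfp991, with 5.54 in TCPA18654 and 6.95 in TPC18645, was the only one at 1 or more. In all, 8 of the 347 were lower by 0.58 or more (2.31%, beside 0.963% of all genes), among them Zfp780b (-0.78), Zfp709 (-0.72) and Zfp947 (-0.69), and these 4 named genes were dim. Of 55 lists with 10 or more genes, 44 had a median within 0.1 of 0 and 3 one beyond 0.2 in size, those of the interferon, acinar and complement genes. Oxidative phosphorylation (median -0.02, 89 genes) and glycolysis with fructose, mannose and pentose phosphate metabolism (-0.02, 48 genes) were at the median of all genes, and neither held a gene at 0.58 or more. The largest were the respiratory chain genes Ndufs5 (-0.45), Cox6a2 and Cox8c (0.40 each) and Ndufa7 (-0.33), and in the second list Hkdc1 (0.54), Hk3 (0.37), Aldoc (-0.24) and Pfkfb4 (-0.23).

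**Figure D4:**
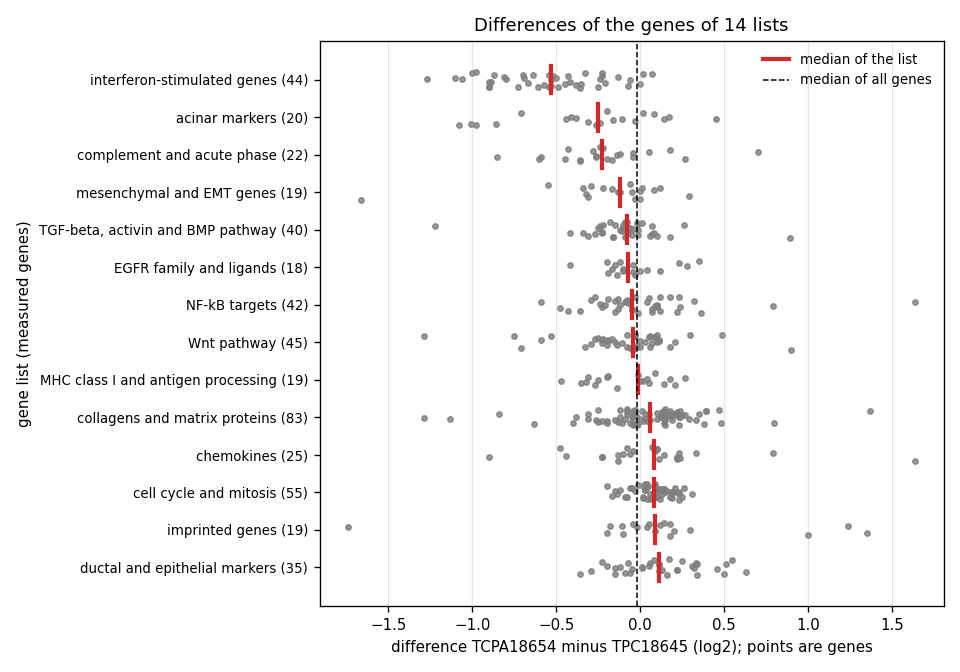
Log2 difference TCPA18654 minus TPC18645 of each measured gene (points, with vertical jitter) in 14 lists; the number of genes is in parentheses, red bars are list medians and the dashed line is the median of all genes (-0.02). The interferon-stimulated list, with a median of -0.53, lies apart, and acinar (-0.25) and complement genes (-0.23) follow.

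Imprinted genes held large differences of single members in both directions. Igf2 was lower by 1.74, while Peg10 and Sgce, paternally expressed neighbors on chromosome 6, and Peg3 on chromosome 7 were higher. Peg10 had 7.44 in TCPA18654, 6.09 in TPC18645, 10.08 in K459 and 12.75 in TPC20223, Sgce had 7.22, 5.98, 11.38 and 11.90, and Peg3 had 7.62 in TCPA18654, 6.62 in TPC18645 and 9.91 in TPC20223, with K459 between the first and the second. For these 3 genes TPC18645 had the lowest signal of the 4 lines. The other 15 of 19 measured imprinted genes differed by 0.30 or less in size, although several of them varied widely among the other lines. Dlk1 had 7.85 and 7.73 in the closest pair, 8.27 in K459 and 13.13 in TPC20223, and Mest had 6.82, 7.02, 8.42 and 12.70.

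Some of the genes that differed lay side by side on a chromosome. The measured genes were put in the order of GRCm38.p6, with unmeasured genes between them skipped. In this order 51 of the 335 genes that differed by 0.58 or more lay at most 3 genes from another that differed in the same direction. They formed 23 runs, 9 higher and 14 lower. How many such runs any 335 genes would form was not counted, so the number is not read as clustering. Aspn, Omd and Ogn, which encode small leucine-rich proteoglycans and lie side by side on chromosome 13, were lower by 1.21, 0.81 and 2.49. Aspn and Omd were dim. Ifit3, Ifit3b and Ifit1 on chromosome 19, Gbp7 and Gbp3 on chromosome 3, and Ifi207 and Ifi205 on chromosome 1 formed runs of interferon-inducible genes. C4b, Cyp21a1 and C4a on chromosome 17 were lower and Ugt2b34, Ugt2b35 and Ugt2b36 on chromosome 5 higher. Of these, C4a, Ugt2b35 and Ugt2b36 were dim. Neighbors that are copies of one another, such as the Ugt2b, C4 and Gbp genes, may share probes, which was not tested. Sgce with Peg10 and Gpnmb with Igf2bp3, both on chromosome 6 and higher, and Slc2a10, Eya2 and Sulf2 on chromosome 2, which were lower, are not copies of one another.

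Whole chromosomes were level in the pair but for one. Among genes above the dim limit, the median difference lay between -0.07 and -0.02 on 19 chromosomes and was 0.05 on chromosome 15. On chromosome 15, 295 of 495 genes were higher in TCPA18654 (59.6%), against 29.6% to 42.5% on each of the other chromosomes. The first 247 of these genes along the chromosome had a median of 0.06 and the remaining 248 one of 0.04. Of the 495 genes, 9 differed by 0.58 or more in size (1.82%), against 1.74% on the other chromosomes. In the other pairs chromosome medians reached from -0.54 to 0.48, for example 0.39 on chromosome 12 and -0.36 on chromosome 16 for K459 minus TPC18645. Medians over 25 neighboring genes lay between -0.19 and 0.17 in the closest pair and reached from -0.88 to 0.90 in the others.

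**Figure D5:**
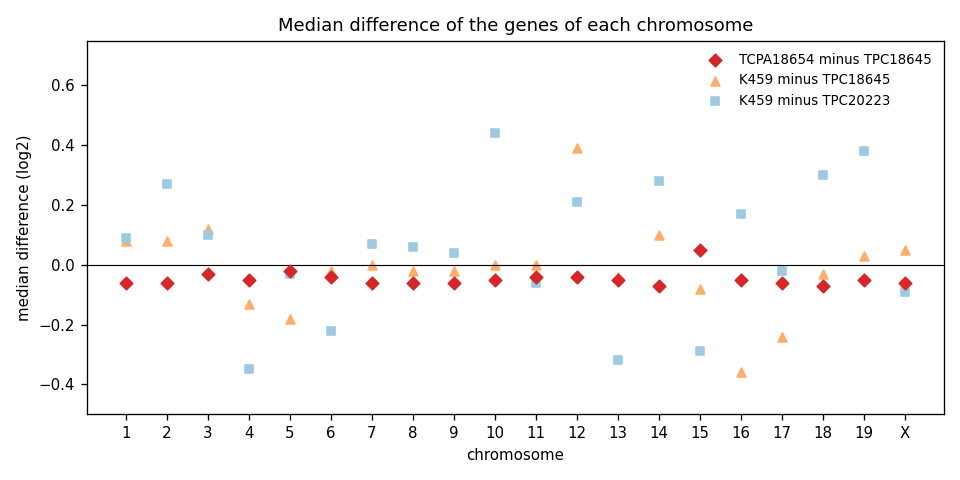
Median log2 difference of the genes above the dim limit on each chromosome, for TCPA18654 minus TPC18645 (diamonds), K459 minus TPC18645 (triangles) and K459 minus TPC20223 (squares). The diamonds lie between -0.07 and -0.02 except on chromosome 15 (0.05), while the other pairs spread widely.

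Whether the differing genes had the same sign between the other lines of the 2 genotypes was read from K459 minus TPC20223, which shares no array with the closest pair. Of the 24 genes higher by 1 or more, 12 were also higher in K459 than in TPC20223, beside 52.8% of all genes. Of the 30 lower genes, 20 were also lower, beside 45.6% of all genes. With the limit of 0.58 these counts were 74 of 143 and 104 of 192. Genes with the same sign and 1 or more in size in both pairs included Ccl20 (1.64 and 2.80), Tm4sf4 (2.47 and 3.27), Anxa13 (1.28 and 4.66), Igf2 (-1.74 and -2.57), Ogn (-2.49 and -2.25) and Mmp2 (-1.66 and -1.40). Genes with opposite signs included Tspan6 (2.39 and -1.63), Thbs2 (1.37 and -3.51), Peg10 (1.35 and -2.67) and Bmp7 (-1.22 and 1.78). The interferon-stimulated list, lower in TCPA18654 than in TPC18645, was higher in K459 than in TPC20223 in 30 of 44 genes, with a median of 0.45. TPC20223 had the lowest signal of many epithelial genes (its median over the 9 ductal and epithelial markers was 6.93, against 10.21 to 12.13 in the other lines), and what part this has in the signs was not tested.

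Seen from the other lines, K459 and TPC20223 stood on the same side of the pair's midpoint in 35 of the 54 genes. The same count was not made over all genes, so it is not read as a trait of these genes. Of the 24 higher genes, both were nearer to TCPA18654 in 8 and both nearer to TPC18645 in 4. Of the 30 lower genes, both were nearer to TCPA18654 in 10 and both nearer to TPC18645 in 13. The 10 with both lines on the side of TCPA18654 included the interferon genes Irf7, Ifit1, Usp18, Xaf1, Ifi205 and Sp100 and the acinar genes Ctrb1, Cpb1 and 2210010C04Rik, for each of which TPC18645 was the highest line. The 13 with both lines on the side of TPC18645 included Ogn, Mmp2, Cldn1, Sfrp2, Sdc2, Fbln5, Gxylt2, Sulf2 and Pmp22, for each of which TCPA18654 was the lowest line. For Mmp2 this places TPC18645 between, nearer to TCPA18654 (by 1.66) than to K459.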

How the data were processed

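Total RNA of 4 mouse pancreatic tumor cell lines was measured on Affymetrix mouse gene arrays, 1 array per line. The authors deposited RMA values on the log2 scale; Affymetrix Expression Console 1.4 is the tool named in the submitters' processing notes. RMA gives arrays a common distribution, so a difference in total RNA cannot be seen, and precision is limited by the 4 arrays.

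Of 28941 transcript clusters, 21789 carried 1 gene symbol in the platform annotation, 1621 several and 5531 none. By Entrez number, 21698 of the first matched RefSeq genes of GRCm38.p6. A gene with several clusters was read from its brightest one (mean of the 4 lines). Differences were TCPA18654 minus TPC18645, counted at 1 or more and 0.58 or more in size; no test, error or p-value is possible with 1 array a side. Gene order came from RefSeq, and the array's own build is not given, so no array coordinates are printed. Scripts ran in Python 3.11.15 with pandas 2.3.3 and in R 4.3.3 with limma 3.58.1 and were tested on simulated data.

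The pair and the 57 gene lists were chosen with earlier results of these data known. Named are the genes of the genotypes, the 20 largest differences in each direction, the 4 largest of each list described and the cell type markers; other genes were named after their values were seen, for their order of lines, role or chromosome neighbors. Alternatives were another choice or the mean of a gene's clusters, leaving out dim genes, a common median per array, cyclic loess, limits of 0.58 and 1.5, leaving out small RNA genes and counting all clusters one by one.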

Additional observations from a re-analysis of the deposited data

Results flagged for a closer look

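The interferon-stimulated list had opposite signs in the 2 comparisons of a TPAC with a TPC line that share no array. Its median log2 difference was -0.53 for TCPA18654 minus TPC18645 and 0.45 for K459 minus TPC20223, with 1 array a side, and the difference between these values was not tested.

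Several transcript clusters that carry more than 1 gene symbol, and so belong to no gene of the report, differed widely in the pair. With larger differences than any single gene, the 6 clusters of the pancreatic amylase (Amy2) family differed by -3.67 to -3.51, with a median of -3.51 (fold 11.4, not exact since TCPA18654 was below the dim limit of 6.96). Their median signal was 8.21 in TPC18645, 4.70 in TCPA18654, 4.46 in K459 and 5.89 in TPC20223, so TPC18645 stood above the other 3 lines. The 24 clusters of the Snord116 family of small nucleolar RNAs, which are imprinted, differed by 1.93 to 2.28, with a median of 2.27 (fold 4.82) and median signals of 4.59 in TPC18645, 6.86 in TCPA18654, 6.49 in K459 and 6.28 in TPC20223. Here TPC18645 stood below the other 3 lines, and all 4 medians were below the dim limit, so that the fold is not exact. The amylase clusters held 3 and the Snord116 clusters 7 distinct rows of values, so they are not separate measurements. Of 5531 clusters with no symbol, 11 differed by 1 or more in size, from -1.85 to 1.37.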

How the results depend on the processing

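The count of 54 genes at 1 or more in size became 335 with a limit of 0.58, 11 with a limit of 1.5 and 101 when all transcript clusters were counted one by one, which counts the repeated clusters of the amylase and Snord116 families each time. In the other settings it lay within 1.5 times of 54. Of the 54 genes, 49 remained with a common median per array, 52 with cyclic loess, 53 with the mean of a gene's clusters and 43 without the genes that were dim by their mean over the 4 lines. The list medians were compared with the SD of olfactory receptor differences divided by the root of the list's size, and 98 of 119 values for 24 lists moved by less than this. A common median per array raised every difference, the median of all genes going from -0.02 to 0.02. It moved the median to -0.49 for interferon-stimulated genes, 0.10 for matrix proteins, -0.01 for matrix proteases, 0.00 for Wnt genes, -0.04 for TGF-β and BMP genes, 0.06 for growth factor signaling, -0.01 for NF-κB targets, -0.03 for neurotrophic genes, 0.15 for ductal markers, 0.12 for cell cycle genes, -0.07 for Zfp genes, 0.15 for ATF4 genes, 0.10 for xenobiotic genes and 0.02 for both oxidative phosphorylation and glycolysis (-0.02 before). Without dim genes it was 0.01 for matrix proteins, -0.08 for matrix proteases, 0.02 for chemokines and -0.08 for MHC class I genes, and with cyclic loess 0.02 for chemokines and -0.07 for MHC class I genes. MHC class I genes also went from -0.01 to 0.03 with a common median per array. Apart from these 3, no median of the 24 lists changed sign; the remaining lists were not rerun. Of 580 values of 121 named genes, 579 moved by less than 0.224, the SD of olfactory receptor differences; the exception was Dnah7b, at -0.47 with the mean of its clusters. The SD of all genes, chromosome 15 and the sign counts against K459 minus TPC20223 stayed within the limits in each setting. Leaving out a replicate was not possible with 1 array a side, and the acinar list without dim genes had too few genes for a median. No paired analysis was possible because the labels give no shared replicate numbers. The cause of these shifts was not tested.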
